A study of Homo sapiens with 3 samples.

Results

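The nuclear genes for subunits of the mitochondrial respiratory chain and of ATP synthase were examined in libraries labelled HepG2, the name of an established cell line from a human liver tumour. They were chosen by gene name, which took NDUFA, NDUFB, NDUFC, NDUFS and NDUFV genes followed by a digit, UQCR genes, CYC1, SDHA to SDHD, COX4 to COX8 genes and ATP5 genes on chromosomes 1 to 22 and X. Names with a hyphen were left out. The rule found 89 of the 43389 gene rows that had the same coordinates in all 3 libraries. RNA-seq, which measures RNA levels by sequencing short fragments of cDNA, was performed on polyA RNA from 3 libraries titled as replicates of HepG2 with the genotype WT. These form 1 condition with no treatment, so levels are described within this condition. The labels do not say whether the replicates came from separate cultures, so the SD over libraries may be technical. Levels are given in TPM, the transcript abundance unit of the deposited tables, which corrects for length and gives each library an equal total.

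Complexes I to IV carry electrons from NADH and succinate to oxygen, and complexes I, III and IV pump protons across the inner mitochondrial membrane. Complex V, the ATP synthase, uses the proton gradient to make ATP. Most subunits are encoded in the nucleus and imported, and the rest are encoded in mitochondrial DNA, so the complexes are built from products of both genomes. Some nuclear subunits of complex IV exist as paralogs that are known to be used in muscle, lung or testis.

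The label of the samples was set against genes of hepatocytes, from which HepG2 is derived. Of 8 such markers, 5, among them ALB and APOA1, were listed at 0 TPM in all 3 libraries, and the highest value of any of the 8 was 0.203 TPM, for TTR. AFP, a fetal liver protein that HepG2 is known to make, had a mean of 0.016 TPM. The defining markers were therefore absent or near 0, which goes against the label, and whether these libraries are HepG2 is in doubt. Read numbers were not known, and the greatest coverage per FPKM, a sign of relative depth, was 13.3, 12.8 and 11.5 in replicates 1, 2 and 3. The mitochondrial tRNA gene TRNC took between 16.9% and 17.2% of all TPM, which lowers every other value by nearly the same factor.

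The 89 rows fell into a high and a low class with a wide gap between them. At least 1 TPM was reached in all 3 libraries by 80 of the 89 rows (89.9%), against 30.7% of all gene rows. The same 80 rows also had at least 10 TPM in all 3 libraries, against 18.8% of all rows. The lowest of them in any library was NDUFA9 with 20.9 TPM. Of the other 9 rows, the highest value in any library was 0.599 TPM, for NDUFA4L2. At least 100 TPM in all 3 libraries was reached by 55 of the 89 rows (61.8%), against 3.29% of all rows. All 80 expressed rows lay above the median of the 13785 genes that averaged 1 TPM or more, which was 15.4 TPM. The median of the 80 was at percentile 95.2 of those genes, and 50 of the 80 were among the 1000 genes of highest mean TPM. Summed over the 89 rows, the share of a library's TPM was between 1.98% and 2.16%, with replicate 1 the lowest. In bulk RNA, a difference in the number of cells that express a gene and a difference in RNA per cell cannot be told apart.

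**Figure D1:**
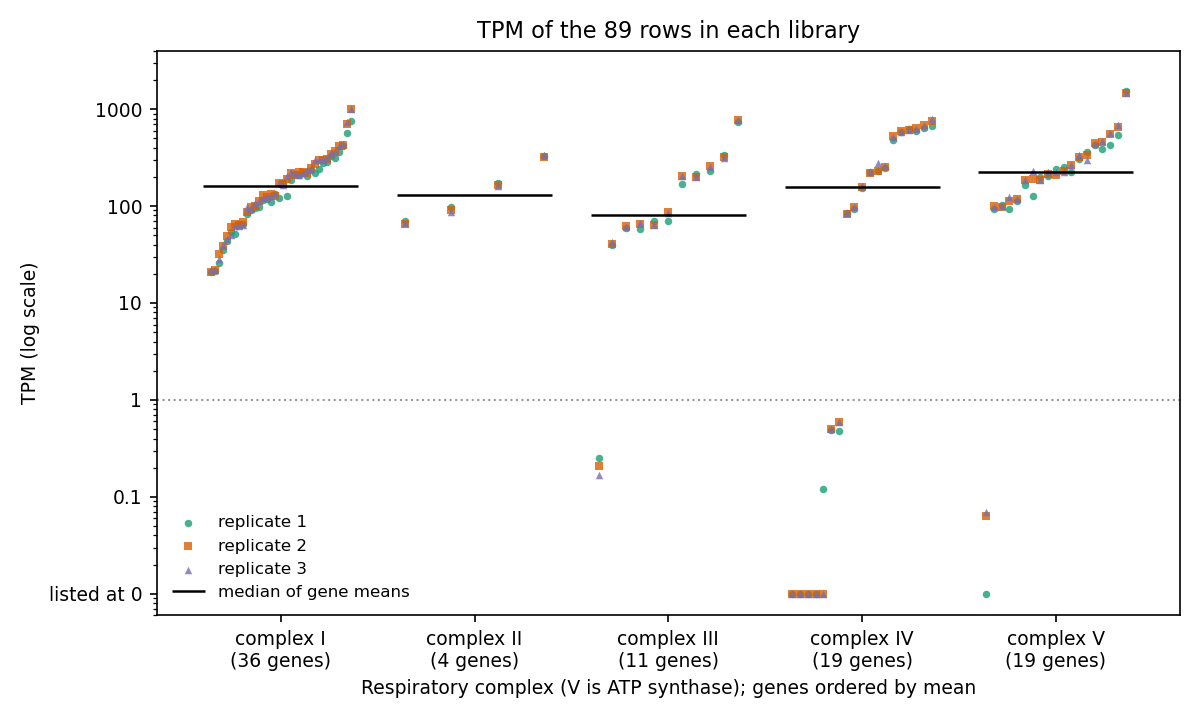
TPM on a log scale of each of the 89 rows in replicates 1, 2 and 3, by complex, with genes ordered by mean and the median of the gene means as a line. Rows listed at 0 are drawn at the bottom. Complexes I and II have no row below 20 TPM, while 7 rows of complex IV lie below 1 TPM and 4 of them are listed at 0 in all libraries.

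By complex, the median over all members was 157 ± 23.4 TPM for complex I (36 rows), 129 ± 6.44 for complex II (4 rows), 81.2 ± 9.12 for complex III (11 rows), 157 ± 4.07 for complex IV (19 rows) and 221 ± 6.83 for complex V (19 rows), each with the SD over 3 libraries. The place of complex IV depended on which rows were counted. Among members of at least 1 TPM the median was 384 ± 20.6 TPM for complex IV (12 rows), 227 ± 4.85 for complex V (18 rows) and 135 ± 12.7 for complex III (10 rows), while complexes I and II kept all their members. Complex V was thus above complex IV over all members, by 0.49 ± 0.05 in median log2(TPM + 1), and complex IV was above complex V by 0.67 among members of at least 1 TPM. Without pseudogene rows and proteins that are not subunits, the medians of complexes IV and V were 223 and 217 TPM. Complex II was above complex III by 0.61 ± 0.24 over all members, but by 0.0012 among members of at least 1 TPM (p = 1 in the exact permutation test described next). The 10 pairs of complexes were compared within libraries with an exact permutation test that flips signs (two-sided), in which the smallest p that 3 libraries allow is 0.25. A p of 0.25 (0.312 after Benjamini-Hochberg adjustment over 10 pairs) was obtained for 8 pairs, each with the same direction in 3 of 3 libraries. Complexes I and II gave p = 0.5 and complexes I and IV gave p = 1 in the same exact test. Complex I exceeded complex IV in replicates 2 and 3, by 0.13 and 0.06, and lay below it in replicate 1, by -0.24 on the log2 scale. Without replicate 1, complex I lay above complex IV by 0.097.

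Complex I, the NADH dehydrogenase, was the largest group, and all 36 of its rows were expressed. NDUFS6, an accessory subunit that binds zinc (chromosome 5, 1801382 to 1816051), had 756, 1002 and 1003 TPM in replicates 1, 2 and 3, or 921 ± 142 TPM (SD, n = 3). NDUFS5 had 566, 709 and 741 TPM, and NDUFB4 had 416, 426 and 433 TPM. For NDUFS6 and NDUFS5 replicate 1 was well below replicates 2 and 3, which lay close to each other. At the other end, NDUFA9 (chromosome 12, 4649114 to 4694317) had 20.9, 21.0 and 22.1 TPM, or 21.3 ± 0.656. NDUFA5 had 21.5, 21.7 and 21.7 TPM. Both are accessory subunits of the matrix arm, as NDUFS6 is, and their libraries did not overlap with those of NDUFS6. The ratio of NDUFS6 to NDUFA9 was 36.2, 47.7 and 45.4 in replicates 1, 2 and 3, although each subunit is present as a single copy in the complex.

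Core subunits of complex I, among them those that hold the flavin and the iron-sulfur clusters, had intermediate levels. NDUFS8 had 217, 223 and 218 TPM and NDUFS3 had 207, 223 and 209 TPM, and the libraries of these 2 genes overlapped. NDUFV1, which binds FMN and NADH, had 173, 170 and 166 TPM, below every library of NDUFS8 and NDUFS3. NDUFV2, which holds an iron-sulfur cluster, had 132, 128 and 132 TPM. NDUFS7 was lower, with 90.3, 98.5 and 92.8 TPM. NDUFS1, the largest core subunit, was the lowest of those named here with 65.6, 63.4 and 61.6 TPM. These core subunits varied little between libraries, and the widest range among them was 0.12 on the log2 scale, for NDUFS7. NDUFAB1, the mitochondrial acyl carrier protein, is also a subunit of complex I but has a name outside the rule, and it had 250 ± 12.6 TPM (SD, n = 3).

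Complex II, succinate dehydrogenase, consists of 4 nuclear subunits. SDHA, the flavoprotein that oxidises succinate (chromosome 5, 218223 to 264816), had 328, 323 and 338 TPM. SDHB, the iron-sulfur subunit, had 173, 164 and 161 TPM, so that the ratio of SDHA to SDHB was 1.99 ± 0.107 (SD, n = 3). The membrane anchors were lower, with 98.5, 91.6 and 85.9 TPM for SDHD and 70.3, 65.1 and 67.6 TPM for SDHC. In TPM, the order SDHA, SDHB, SDHD, SDHC held in every library with no overlap between neighbours. It did not hold in coverage, the mean read depth of a gene. There SDHA had 690, 689 and 612, below SDHB with 1087, 1004 and 883. SDHD had a coverage of 115, 105 and 88.0, below SDHC with 434, 393 and 366.

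Complex III, the cytochrome bc1 complex, spanned a range from 41.3 to 762 TPM among its expressed rows. UQCRH, the acidic hinge protein (chromosome 1, 46303613 to 46316777), was the highest with 737, 773 and 775 TPM. It was followed by UQCRC1, a core protein, with 333, 324 and 316 TPM. CYC1, the cytochrome c1 subunit that passes electrons to cytochrome c, had 231, 257 and 250 TPM, where the value of replicate 3 is 250.5. UQCRFS1, the Rieske iron-sulfur protein, had 69.6, 63.7 and 63.4 TPM. Both are catalytic, and CYC1 was above UQCRFS1 in every library. UQCR10 and UQCRB, which are small accessory subunits, were the lowest apart from UQCRHL, with 60.8 ± 1.79 and 63.4 ± 4.798 TPM (SD, n = 3). CYCS, the cytochrome c that carries electrons from complex III to complex IV, is outside the rule and had 148 ± 2.67 TPM.

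Complex IV, cytochrome c oxidase, had 6 members with a mean of at least 500 TPM. COX7C had 673, 755 and 792 TPM, COX5B had 642, 684 and 676 TPM, and COX4I1 had 592, 642 and 618 TPM. COX6A1 had 618, 609 and 603 TPM, and COX8A had 587, 598 and 583 TPM. COX7C and COX5B overlapped. In TPM, every library of COX5B lay above those of COX4I1, COX6A1 and COX8A, although its lowest was level with the highest of COX4I1 at 642 TPM. COX4I1 overlapped with COX6A1 and COX8A in TPM but not in coverage. Its coverage of 1186, 1262 and 1093 was below the lowest of COX6A1 (3313) and of COX8A (3206). In TPM, COX6B1 was below all of the genes above, with 477, 531 and 517 TPM. The lower part of the complex was formed by COX6C, COX7A2 and COX5A, with means from 223 to 253 TPM, and by NDUFA4, a subunit first assigned to complex I, with 154, 157 and 162 TPM. COX7B was the lowest expressed structural subunit, with 93.5, 97.0 and 98.0 TPM. COX7A2L, which promotes supercomplexes of complexes III and IV, had 84.4 ± 1.52 TPM (SD, n = 3).

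Complex V held the highest member. ATP5F1B, the catalytic beta subunit (chromosome 12, 56638175 to 56645984), had 1547, 1476 and 1466 TPM, and ranked 72nd of the 13785 genes of at least 1 TPM. ATP5F1A, the alpha subunit that alternates with beta in the F1 head, had 362, 334 and 300.1 TPM. The ratio of ATP5F1B to ATP5F1A was 4.28, 4.42 and 4.88. Each F1 head holds 3 copies of alpha and 3 of beta but 1 each of gamma, delta and epsilon. Per copy, the level was 499 ± 14.8 TPM for ATP5F1B and 111 ± 10.3 for ATP5F1A (SD, n = 3). ATP5F1C, the gamma subunit, had 102, 98.7 and 101 TPM (101 ± 1.76), against 121, 111 and 100 TPM per copy of ATP5F1A. It was below that level in replicates 1 and 2 and above it in replicate 3. In coverage, before division by copies, ATP5F1C had 600, 568 and 522 and ATP5F1A had 745, 693 and 615. With 3 copies of ATP5F1A, ATP5F1C lay above the per-copy coverage in every library. ATP5F1B had a coverage of 9702, 9062 and 8056, a wider gap to ATP5F1A than in TPM. ATP5F1D, the delta subunit, had 236 ± 13.5 TPM.

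ATP5F1E, the epsilon subunit, had 92.2, 114 and 123 TPM, and its value is uncertain. The row of the read-through gene SLMO2-ATP5E overlaps that of ATP5F1E over 3658 bases on the same strand, and it had 98.3, 117 and 109 TPM. Reads of the shared exons could have been given to either row, and the summed level was 218 ± 23.8 TPM (SD, n = 3). The other read-through rows were low. NDUFC2-KCTD14 was listed at 0, 0.0394 and 11.2 TPM, and ATP5MF-PTCD1 at 0, 3.94 and 0 TPM, beside levels above 100 TPM for NDUFC2 and ATP5MF in every library. In all, 7 of the 80 expressed rows overlapped a row of at least 1 TPM on the same strand and 13 on the opposite strand. The share over all genes is not given here, so these counts do not set the members apart. Some overlaps were short, such as 15 bases of NDUFB11 with RBM10 and 16 bases of ATP5MD with TAF5. The strand setting is not given in the sources used here, so reads from such rows could not be told apart where exons coincide.

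Among the membrane and stalk subunits of complex V, ATP5MF, subunit f, had 536, 650.1 and 680 TPM. ATP5IF1, the inhibitor that blocks ATP hydrolysis by the enzyme and is not a structural subunit, had 425, 559 and 565 TPM. ATP5MD had 386, 455 and 473 TPM. For all 3 genes replicate 1 was the lowest by a wide margin. ATP5PF, a stalk subunit, was the lowest expressed member of complex V with 96.5 ± 3.22 TPM (SD, n = 3). ATP5PO, the subunit that links stalk and head, had 205, 213 and 225 TPM, and ATP5PB, of the peripheral stalk, had 198, 185 and 187 TPM.

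**Figure D2:**
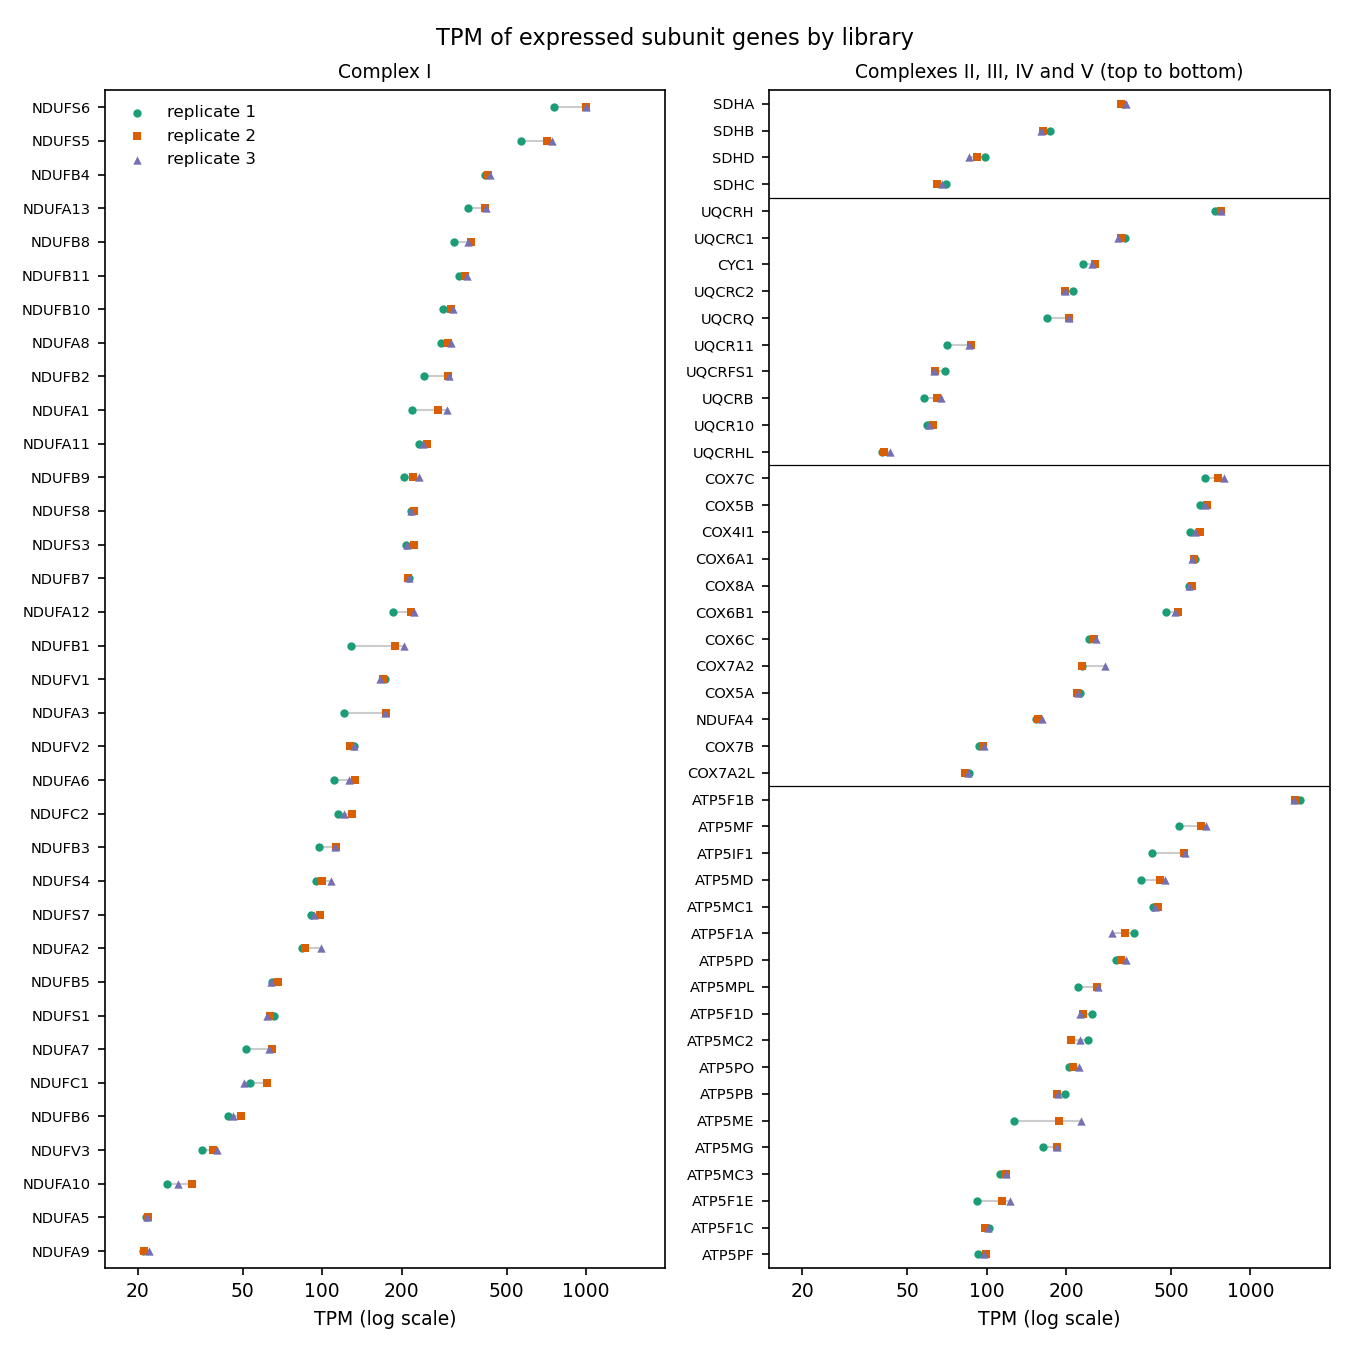
TPM on a log scale of the expressed genes reported by name, with 1 point for each library and genes ordered by mean within complex I at the left and complexes II to V at the right. Most points of a gene lie close together, while replicate 1 stands to the left of the others for ATP5ME, NDUFB1, NDUFA3 and several others.

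The ring of ATP synthase is made of the c subunit, whose mature protein is the same from ATP5MC1, ATP5MC2 and ATP5MC3. ATP5MC1 had 427, 448 and 436 TPM, ATP5MC2 had 241, 209 and 227 TPM, and ATP5MC3 had 113, 119 and 119 TPM. The groups did not overlap. Of the summed level of these genes, ATP5MC1 contributed 56.1% ± 1.56, ATP5MC2 28.9% ± 1.98 and ATP5MC3 14.97% ± 0.469 (SD, n = 3). The sum itself varied little, at 782, 775 and 781 TPM. On the log2(TPM + 1) scale ATP5MC2 was below ATP5MC1 by -0.95 ± 0.14 and ATP5MC3 was below ATP5MC1 by -1.90 ± 0.02, each in 3 of 3 libraries.

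The paralogs known from other tissues were near or at 0. COX4I2, a hypoxia-responsive form of subunit 4 known from lung, COX6A2 of heart and skeletal muscle, COX7B2 and COX8C of testis were listed at 0 TPM in all 3 libraries. The share of members listed at 0 throughout was 4.49%, against 46.1% of all gene rows. COX6B2 of testis was listed at 0.122, 0 and 0 TPM. COX7A1 of muscle had 0.486, 0.503 and 0.497 TPM, while its counterpart COX7A2 had 229, 230.2 and 281 TPM, a ratio of 498 ± 58.5 (SD, n = 3). NDUFA4L2, a target of hypoxia-inducible factor, had 0.477, 0.599 and 0.599 TPM and was exceeded by NDUFA4 by a ratio of 285 ± 32.5 (SD, n = 3). No fold is given for genes listed at 0.

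UQCRHL was higher than these. It is an intronless copy of UQCRH on chromosome 1 (15807162 to 15807699) and had 40.1, 40.9 and 43.0 TPM. UQCRH was 18.4 ± 0.421 times as high (SD, n = 3). The 2 sequences are near-identical, so reads of UQCRH could have been given to UQCRHL, and the value is uncertain. ATP5MGL, a copy of the gene for subunit g, was listed at 0, 0.0629 and 0.0706 TPM, and its row lies within that of CYB5R3 on the same strand (76.7 TPM). UQCRBP1, a pseudogene of UQCRB, had 0.210 ± 0.0433 TPM (SD, n = 3), and its row lies within that of NBDY on the opposite strand (42.4 TPM). Of the 13 pairs of paralogs, 6 had a gene at 0 in a library and 7 were compared. Each of the 7 had the same direction in 3 of 3 libraries, with p = 0.25 in the same exact permutation test, also after Benjamini-Hochberg adjustment over 7 pairs. A further 13 rows carry names of these genes on alternate contigs of the assembly, and 0 of them were above 0 TPM.

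**Figure D3:**
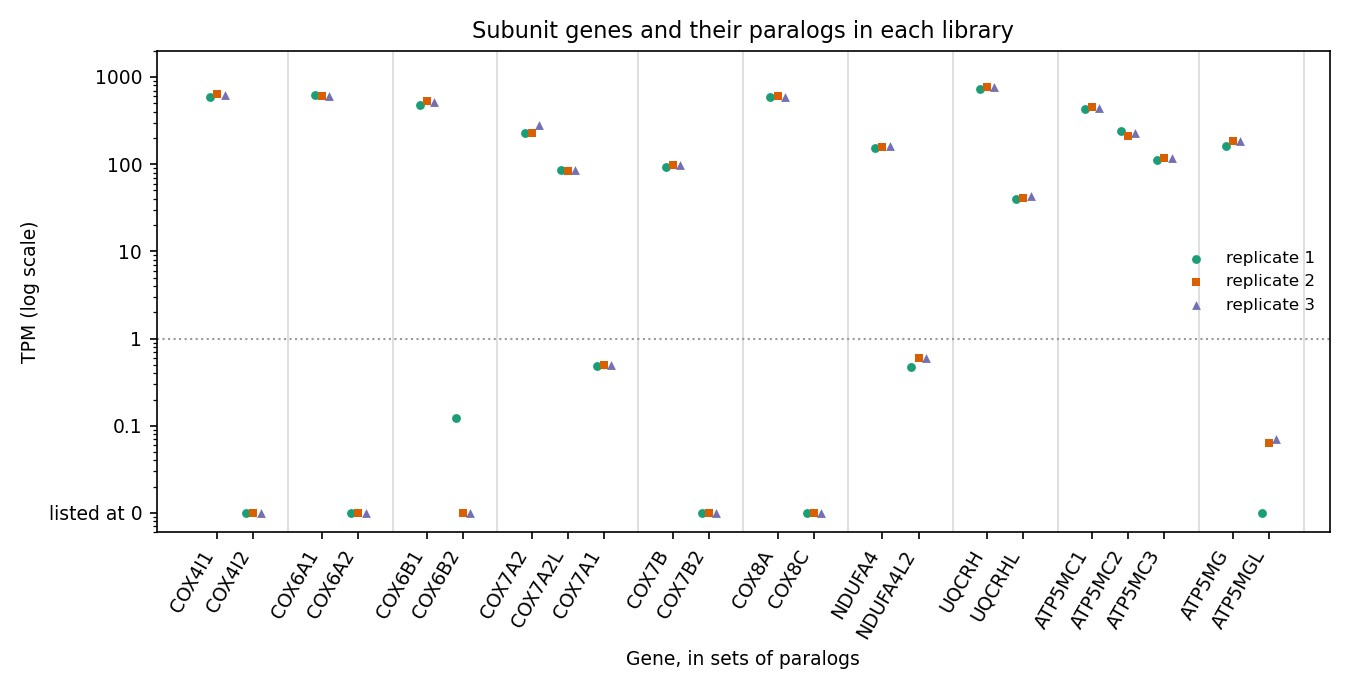
TPM on a log scale of subunit genes and their paralogs, with 1 point for each library. The forms known from muscle, lung or testis lie below 1 TPM or are listed at 0, whereas ATP5MC1, ATP5MC2 and ATP5MC3 all lie above 100 TPM and UQCRHL near 41 TPM.

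The 80 expressed members were steady between libraries in most cases. The range of log2(TPM + 1) exceeded 1 in 0 of 80, against 30 of 8435 genes that averaged 10 TPM or more (0.356%). The median CV was 4.68%, against 4.88% in those genes. A CV above 10% was found in 17 of the 80 (21.2%), against 9.56% of the 8435 genes. The widest ranges belonged to ATP5ME (0.85), NDUFB1 (0.67), NDUFA3 (0.52), NDUFA1 (0.45) and ATP5IF1 (0.41). ATP5ME, subunit e of the ATP synthase membrane part, had 127, 189 and 229 TPM. NDUFB1, a small membrane subunit of complex I, had 128, 189 and 205 TPM. NDUFA3 had 121, 174 and 173 TPM and NDUFA1 had 219, 274 and 298 TPM. In all of these replicate 1 was the lowest.

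This held for most of the members. Replicate 1 was the lowest library in 57 of the 80 (71.2%), against 19.6% of the 8435 genes, of which 62.5% had replicate 1 as the highest library. On the log2(TPM + 1) scale, replicate 1 minus the mean of replicates 2 and 3 had a median of -0.08 over the members and of 0.07 over the 8435 genes. Replicate 1 was lowest in 30 of 36 rows of complex I, 7 of 10 of complex III, 8 of 12 of complex IV and 12 of 18 of complex V. In complex II it was lowest in 0 of 4 and highest in 3 of 4. With median-of-ratios scaling, replicate 1 was lowest in 69 of 80 members and 38.8% of genes. With coverage over its library total it was lowest in 60 of 80 members and 19.5% of genes.

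Transcript length moved with this difference. The members are short, with a median canonical transcript of 760 bases in GENCODE v44 (760.5 over 80 genes), against 3057 bases over 8004 protein-coding genes of at least 10 TPM. The canonical transcript of the annotation need not be the one expressed in these cells. Those of NDUFS1, UQCRB and NDUFA9 are very long, at 11660, 8459 and 8356 bases. Of the 47 members below 1000 bases, replicate 1 was lowest in 40 (85.1%), against 63.4% of all 577 protein-coding genes below this length. Of the 33 members of at least 1000 bases it was lowest in 17 (51.5%), against 15.1% of 7427 genes. Below 500 bases, the median of replicate 1 minus the others was -0.30 over 11 members and -0.21 over 58 genes, and from 4000 bases it was -0.03 over 8 members and 0.12 over 2793 genes. ATP5ME and NDUFB1, with canonical transcripts of 303 and 317 bases, had the largest differences at -0.71 and -0.62. Across the 80 members, Spearman's rho of this difference with length was 0.44, and across the 8004 genes it was 0.46. These are correlations across genes, which share the same 3 libraries and are not independent. The part of transcript length, or of the library itself, in the lower values of replicate 1 was not tested.

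**Figure D4:**
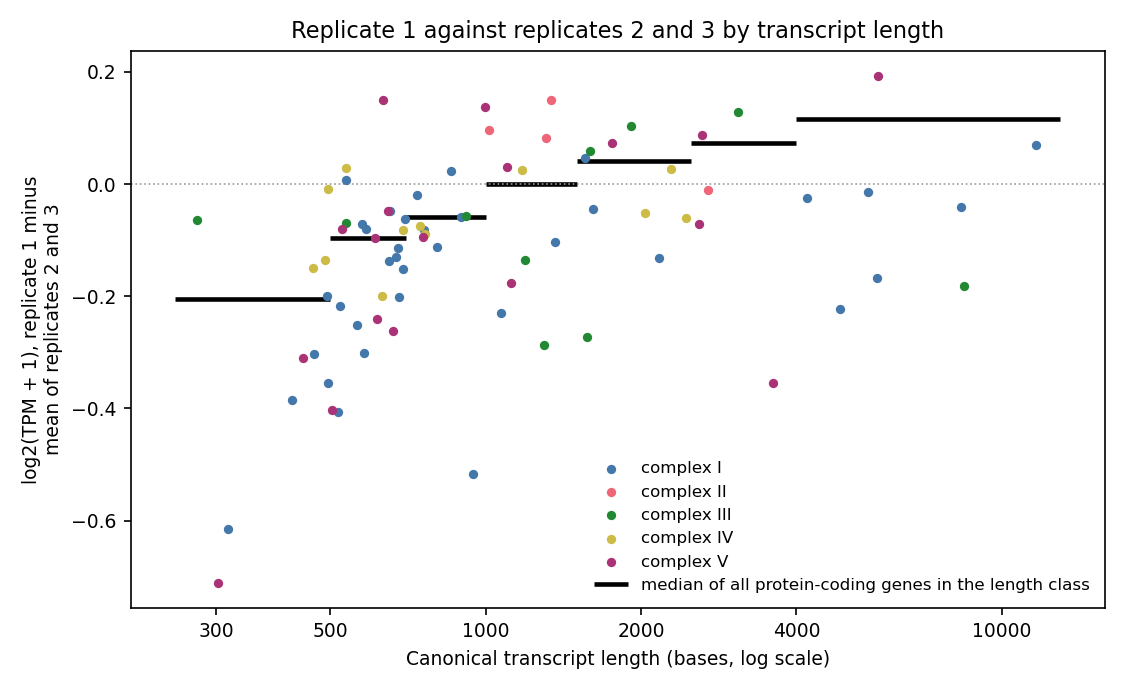
Difference of log2(TPM + 1) between replicate 1 and the mean of replicates 2 and 3 for the 80 expressed genes, against canonical transcript length on a log scale, with the median of all protein-coding genes of at least 10 TPM in each length class as black lines. The medians rise from -0.21 below 500 bases to 0.12 from 4000 bases, and the points of complex I lie mostly below 0.

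Length also moved with the level. Across the 80 expressed members, Spearman's rho of mean TPM with canonical transcript length was -0.49, and it was -0.34 across the 8004 protein-coding genes. Members of 500 to 700 bases had a median of 323 TPM (25 genes), and those of at least 4000 bases had a median of 50.6 TPM (8 genes). The fall was not steady. The median was 264 TPM below 500 bases (11 genes), 112 TPM from 1000 to 1500 bases (10 genes) and 164 TPM from 1500 to 2500 bases (10 genes). The order of the genes also differed between TPM and coverage. The ratio of coverage to FPKM, relative to the highest ratio in the library, was within 0.5% of that highest value for 29 of the 80 members in each library. It was below 0.5 for 20 members in replicate 1. The shares over all genes are not given here, so these counts do not set the members apart. NDUFA10 was at 0.0906, NDUFA8 at 0.158, NDUFA11 at 0.185 and SDHD at 0.186. For these genes TPM gives a higher place in the order than coverage does. NDUFA8 was at 281 TPM and a coverage of 279 in replicate 1, while NDUFB10, at the highest ratio, was at 287 TPM and a coverage of 1802.

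The members were then set against other gene groups of mitochondria, using within-library medians. All 50 assembly factors, which build the complexes without staying in them, had at least 1 TPM in all libraries, and 10 had at least 100 TPM. Their median was 38.1 ± 1.19 TPM, against 206 ± 4.997 TPM for the 80 expressed members (SD, n = 3). COA6 and COX17, which deliver copper to complex IV, were the highest with 253 ± 5.77 and 177 ± 14.8 TPM. SCO2, another copper chaperone, and SDHAF4 were the lowest with 3.67 ± 0.512 and 3.26 ± 0.542 TPM. These 80 members were above the assembly factors by 2.41 ± 0.03 in median log2(TPM + 1). In each comparison with a list, members means these 80 rows, which were kept by their own TPM. The median over all 89 rows was 181 ± 9.51 TPM. No list was filtered, but each of its rows had at least 1 TPM in all 3 libraries.

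The 78 proteins of the mitochondrial ribosome, which translates the mitochondrially encoded subunits, had a median of 76.8 ± 2.12 TPM, and the members were 1.41 ± 0.07 above them. MRPS34 was the highest with 368 ± 6.79 TPM and MRPS31 the lowest with 16.2 ± 0.916 TPM. The 14 enzymes of the TCA cycle, which supply NADH and succinate, had a median of 84.9 ± 1.99 TPM, and the members were 1.28 ± 0.06 above them. FH and CS were the highest with 239 ± 12.1 and 237 ± 10.6 TPM, and IDH2 was the lowest with 19.6 ± 1.35 TPM. The 11 genes for the synthesis of coenzyme Q, the electron carrier between complexes I or II and III, had a median of 21.5 ± 1.45 TPM, and the members were 3.20 ± 0.13 above them. COQ4 was the highest with 69.2 ± 4.44 TPM and PDSS2 the lowest with 8.96 ± 0.928 TPM. No gene of this list reached 100 TPM in all libraries. All these differences had the same direction in 3 of 3 libraries, and p was 0.25 in the exact permutation test for each of 5 lists, also after Benjamini-Hochberg adjustment.

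The mitochondrially encoded subunits could be compared only in part, and they were the fifth list. The tables hold 2 rows for them, ND1 with 7773 ± 180.1 TPM and ND6 with 3282 ± 407 TPM (SD, n = 3). The row named ND1 runs from 3307 to 15887 on the mitochondrial chromosome, while MT-ND1 ends at 4262 in GENCODE v44. It contains 12 of the 13 protein-coding mitochondrial genes, so it is a value over many genes and not the level of ND1. Both rows were above every nuclear member, and the members were below the list by -4.60 ± 0.07 in median log2(TPM + 1).

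Transcription of the subunit genes is known to be driven by NRF1, by the GABP factor of the ETS family and by YY1, with coactivators of the PGC-1 family. NRF1 had 11.8 ± 0.225 TPM and GABPA 10.1 ± 0.953 TPM, while GABPB1, the partner of GABPA, had 38.2 ± 6.89 TPM (SD, n = 3). YY1 had 90.7 ± 6.09 TPM and ESRRA, a nuclear receptor that acts with PGC-1, had 85.9 ± 3.11 TPM. Of the coactivators, PPRC1 had 41.8 ± 0.451 TPM, PPARGC1A 7.35 ± 0.308 TPM and PPARGC1B 4.78 ± 0.329 TPM. TFAM, which packages and transcribes mitochondrial DNA, had 46.5 ± 1.32 TPM, and POLRMT, the mitochondrial RNA polymerase, had 57.6 ± 1.54 TPM. TFB2M, its initiation factor, had 37.8 ± 1.68 TPM and TFB1M had 8.27 ± 0.281 TPM. All 12 regulators had at least 1 TPM in all 3 libraries, against 30.7% of all gene rows. All lay below the median of the expressed subunit genes. That median was at percentile 95.2 of genes that averaged 1 TPM or more, so most such genes lie below it too.

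Promoter windows of 300 bases, from 250 before to 50 after the gene's start in RefSeq on GRCh38.p14, were at hand for 71 of the 89 rows, of which 66 were expressed. Short motifs were searched on both strands. The letters GCATGCG, the centre of the NRF1 site, were in 13 of the 66 windows (19.7%), against 6.83% of 6825 promoters of genes with at least 10 TPM and 4.11% of all 27195 promoters. The shorter core TGCGCA, which can overlap with GCATGCG, was in 19 of the 66 (28.8%), against 15.2% and 8.43%. CCGGAAG, an ETS site as bound by GABP, was in 20 (30.3%), against 22.5% and 10.7%. AGATGGC, part of the YY1 site, was in 12 (18.2%), against 8.70% and 5.61%. The SP1 letters GGGCGG were in 41 (62.1%), against 73.1% and 44.7%, and the TATA letters TATAAA were in 6 (9.09%), against 4.94% and 12.0%. At least 1 of the NRF1 (longer form), ETS and YY1 motifs was in 34 of the 66 windows (51.5%), against 33.3% of promoters of genes with at least 10 TPM. Of the 5 windows of low paralogs, 0 held any of these 3, while 1 held the shorter core TGCGCA. Each of the 3 was uncommon over all promoters, at 4.11%, 10.7% and 5.61%, so 0 of 5 does not set these paralogs apart. These are matches of letters and not measured sites, and no test was made.

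**Figure D5:**
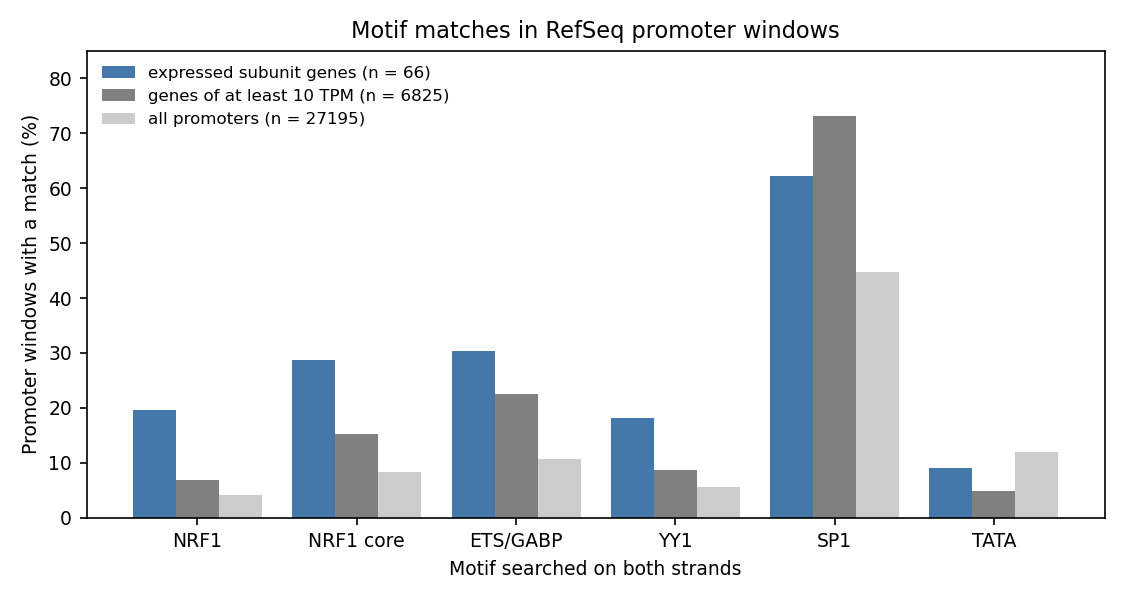
Share of promoter windows, in percent, that hold each motif on either strand, for 66 expressed subunit genes, 6825 genes of at least 10 TPM and all 27195 promoters. The subunit genes have the highest share for NRF1, its core, ETS/GABP and YY1, and lie below the genes of at least 10 TPM for SP1.

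The sequences that follow show the NRF1 letters in capitals with 10 bases on each side, for the highest expressed member of complexes I, II, IV and V with a match before the start, since these letters differed most from the background by ratio. Of the 7 expressed members of complex III with a promoter window, 0 had a match. CYC1, UQCRB and UQCRHL had no window and were not searched. On GRCh38.p14 they are chr5:1801353-1801379 (NDUFS6, plus strand), chr1:17054216-17054242 (SDHB, minus strand), chr2:97645916-97645942 (COX5B, plus strand) and chr12:53676107-53676133 (ATP5MC2, minus strand), and the letters end 38, 194, 130 and 34 bases before the RefSeq start. The sequence of ATP5MC2 lies inside the row whose TPM is given here (53665160 to 53677546), so it is not upstream of that row. Each sequence is written 5′ to 3′ on the strand of its gene.
NDUFS6: gaagccgtgcGCATGCGttagcgctaa
SDHB: agccaaatggGCATGCGccgctactgc
COX5B: gcagagctggGCATGCGcaatttccgc
ATP5MC2: cccgggtcacGCATGCGctgagccttc

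The ETS letters, in capitals and as the reverse complement for UQCRH, are shown in the same way for the highest such member of each complex, since they were the commonest of the 3 activator motifs. On GRCh38.p14 they are chr19:19516205-19516231 (NDUFA13, plus strand), chr1:17054144-17054170 (SDHB, minus strand), chr1:46303642-46303668 (UQCRH, plus strand), chr2:97646015-97646041 (COX5B, plus strand) and chr10:103396619-103396645 (ATP5MD, minus strand). Those of SDHB and UQCRH lie inside the rows whose TPM is given here, which end at 17054170 and start at 46303613.
NDUFA13: ccgcccgggaCCGGAAGtgtgggatac
SDHB: acccgggaaaCCGGAAGccgcctccca
UQCRH: gtgtgccgcaCTTCCGGccagatcgcc
COX5B: aagcccgcccCCGGAAGtccctcctgt
ATP5MD: tgcaattcttCCGGAAGtgtgggcggg

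SDHB and COX5B appear in both sets, and their windows hold both motifs. The level of members with and without a motif is given without a test. Expressed members with GCATGCG had a median of 181 TPM (13 genes) and those without it 208 TPM (53 genes), and members with CCGGAAG had 238 TPM (20 genes) against 182 TPM without it (46 genes).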

How the data were processed

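The 3 libraries carry the labels HepG2 and WT, and each has a table of its own. Per the labels and the paper's methods, reads were filtered with FastQC 0.11.8 and Trim Galore 0.6.2 and mapped to GRCh38 with STAR 2.6.1a, and the submitters' processing notes also list StringTie. The annotation and strand setting are not given in the sources used here. In the tables deposited by the authors, coverage is the mean read depth of a gene. The FPKM there, as the authors made it, corrects for length and depth. The TPM that the authors deposited corrects for length and sums to an equal total per library. The tables hold no counts, so depth is unknown, no counting error is given, and precision is the SD over 3 libraries.

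Tables were merged on gene, coordinates and strand, which left out up to 4 rows of a table. Levels were tested on log2(TPM + 1), a scale that understates ratios of low genes, within libraries by an exact sign-flip permutation test. The range calculation was tested on simulated data. Transcript lengths came from GENCODE v44, matched by name and position, and promoters from RefSeq. Members and lists were chosen with earlier results of these data known, the mitochondrial ribosomal proteins were taken by name, and the comparison of replicate 1 by length was added after seeing the data. The genes named were the highest, lowest, catalytic, paralogous and most variable members of each complex, the ends of each list and every regulator, and other members were named after their values were seen. The values of 1 member are not reported here by name, and it is kept in all counts. Alternatives were other pseudocounts, units, scalings, limits on low TPM and leaving out each replicate. Tools were scipy 1.17.1, numpy 2.4.6 and pandas 2.3.3 under Python 3.11.15.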

Additional observations from a re-analysis of the deposited data

How the results depend on the processing

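No paired analysis was possible because only 1 condition was sampled. With 3 libraries the tests cannot give a p below 0.25, so only directions were compared. Of 214 comparisons with an alternative setting, some concerned levels or counts, which have no direction to reverse. Among those of levels by complex, 24 moved by at least the SD over libraries and 26 did not. All of those in FPKM and coverage, which are other units, moved. Where a pair had the same direction in 3 of 3 libraries, leaving out a replicate could not reverse it. Among the comparisons that have a direction, 2 reversed. Both concern complex IV, where complex I lay above it by 0.097 without replicate 1, and it lay above complex V by 0.67 among members of at least 1 TPM. The difference of complexes II and III kept its sign but fell from 0.61 to 0.0012 (exact permutation p = 1) among members of at least 1 TPM and to 0.090 (p = 0.75) in coverage, and with means complex III was the higher. The range over left-out replicates was -0.088 to 0.097 for complexes I and IV.

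The median levels of complexes I, II, III, IV and V were 74.9, 61.4, 38.7, 75.0 and 105 in FPKM and 538, 531, 483, 573 and 942 in coverage, which are other units. They were 197, 161, 102, 197 and 277 TPM without mitochondrially encoded genes, and 204, 164, 186, 252 and 319 TPM as means in place of medians. Among members of at least 1 TPM, complexes III and IV were at 135 and 384 TPM, and without pseudogene rows and proteins that are not subunits they were at 135 and 223 TPM and complex V at 217 TPM, below complex IV. The alternatives run for them kept the direction of every paralog pair and list comparison and the 0 members of a range above 1. The count of expressed members was 80 in each alternative except a minimum of 0.1 TPM, which gave 83. Replicate 1 stayed below both others in 57 to 69 of the 80 members over 3 other scalings. These scalings and the sum for ATP5F1E were chosen after seeing the data. ATP5F1E moved from 110 to 218 TPM with the read-through row added.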
